A study of Mus musculus with 16 samples.

Results

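Collagens are the main structural proteins of the extracellular matrix, and each collagen molecule is a triple helix of alpha chains that are encoded by separate genes. The genes described here are the rows of the authors' normalized table whose symbol consists of Col, a type number, the letter a and a chain number. This rule gave 41 of 21220 rows. They comprise 8 fibrillar chains, 6 chains of the collagens of cartilage, 9 chains of basement membranes, 5 chains of type VI collagen, 6 further fibril-associated chains (FACIT), 3 transmembrane chains and 4 others. Of the 41 chains, 39 passed the filter on low counts and were tested. The other two were Col6a5, with 0 counts in 13 of 16 libraries, and Col13a1, with 1 to 14 counts per library. Col6a4, Col10a1 and Col17a1 fell outside these rows and had at most 3, 5 and 4 counts in any library.

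The tissue was the organ of Corti, which carries the hair cells of the inner ear, taken from C57BL/6 mice on postnatal day 0 and kept for 3.5 days on transwells coated with Matrigel. The study crossed a treatment with a genotype, with 4 libraries in each of 4 groups. Mice were wild type or Rest(+/deltaExon4), that is, with 1 allele of Rest lacking exon 4. REST is a transcriptional repressor of neuronal genes that works with histone deacetylases. Cultures received 2 nM FK228 (romidepsin, an inhibitor of class I histone deacetylases) or the solvent alone, 0.1% DMSO, from day in vitro 1 to 1.5 and again from day 3 to 3.5. RNA of 6 to 8 cultures was combined in each library, so a library is a pool and p-values measure the spread between pools. Whether pools came from separate litters is not given in the labels. Libraries carry the replicate numbers 1, 2, 3 and 4 (wild type, solvent), 1, 2, 4 and 7 (wild type, FK228), 1, 2, 4 and 5 (heterozygous, solvent) and 2, 3, 4 and 5 (heterozygous, FK228). Values listed by library follow this order.

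Fibrillar collagens (types I, III, V and relatives) form the fibrils of connective tissue, and their chains are made mainly by fibroblasts and other mesenchymal cells. Types II, IX and XI build the mixed fibrils of cartilage and, in the cochlea, the tectorial membrane that lies over the hair cells. Type IV forms the sheets of basement membranes. Networks of its alpha1 and alpha2 chains are found in nearly all tissues, while the alpha3, alpha4 and alpha5 chains form a network in the glomerulus, lens and cochlea that is defective in Alport syndrome. Mutations in chains of types II, IX and XI cause Stickler syndrome and other forms of hearing loss.

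Levels are given as CPM, the usual scaling of counts to a common library total, here after TMM adjustment, which assumes that most genes do not differ. CPM depends on transcript length, so levels of different genes were compared only as CPM per kilobase of merged exons. Merged exons can be longer than any single transcript. For Col1a2 they span 12426 bases, and its longest coding transcript has 5348. The order of genes by level therefore depends on this choice of length. Comparisons are log2 fold changes, with their SE, from edgeR's quasi-likelihood test over 17125 genes. A chain was said to have risen or fallen where its Benjamini-Hochberg adjusted p was under 0.05. Intervals are 95% intervals from the SE of the model.

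The libraries held 12361027 to 23611571 gene counts. Reads outside annotated genes made up 10.4% to 20.8% of reads, and the lowest shares belonged to heterozygous solvent replicate 4 (10.4%) and wild-type solvent replicate 1 (10.8%). Spike-in RNA averaged 0.178%, 0.205% and 0.200% in the wild-type solvent, wild-type FK228 and heterozygous solvent groups, and 0.350% in the heterozygous FK228 group. Rest itself averaged 81.4, 73.8, 88.3 and 81.0 CPM in the same order of groups and was not called in any comparison. Counts per gene do not resolve exon 4, so they do not check the genotype. Marker genes of the organ of Corti were present in all libraries: 13 hair cell genes summed to 328 to 577 CPM and 13 supporting cell genes to 2642 to 4154 CPM.

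Per kilobase of merged exons, the cartilage chain Col9a1 and the fibrillar chain Col3a1 were the most abundant collagen mRNAs over all 16 libraries. In wild-type solvent cultures Col9a1 averaged 469 ± 96.01 CPM per kilobase (SD, n = 4) and Col3a1 229.6 ± 27.9. Col2a1 followed with 121 ± 17.5, Col9a3 with 74.6 and Col1a2 with 66.6 CPM per kilobase. With these lengths, Col1a2, Col9a3, Col4a3 and Col11a2 had ranges over the 4 libraries that overlapped, so their order was not resolved. In these cultures the highest mean was that of Col4a3 among basement membrane chains (47.7 CPM per kilobase), Col6a1 in type VI (15.98), Col14a1 among FACIT chains (6.55), Col23a1 among transmembrane chains (6.15) and Col8a1 among the others (15.01). Col4a1 was at 44.1 CPM per kilobase, inside the range of Col4a3, so their order was not resolved, and in heterozygous FK228 cultures Col18a1 (31.2) and Col4a1 (27.3) had higher means than Col4a3 (20.4). Col1a1 stood at 6.93 CPM per kilobase, below its type I partner Col1a2. The plot of levels per kilobase shows all 39 tested chains in the 4 groups.

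**Figure D1:**
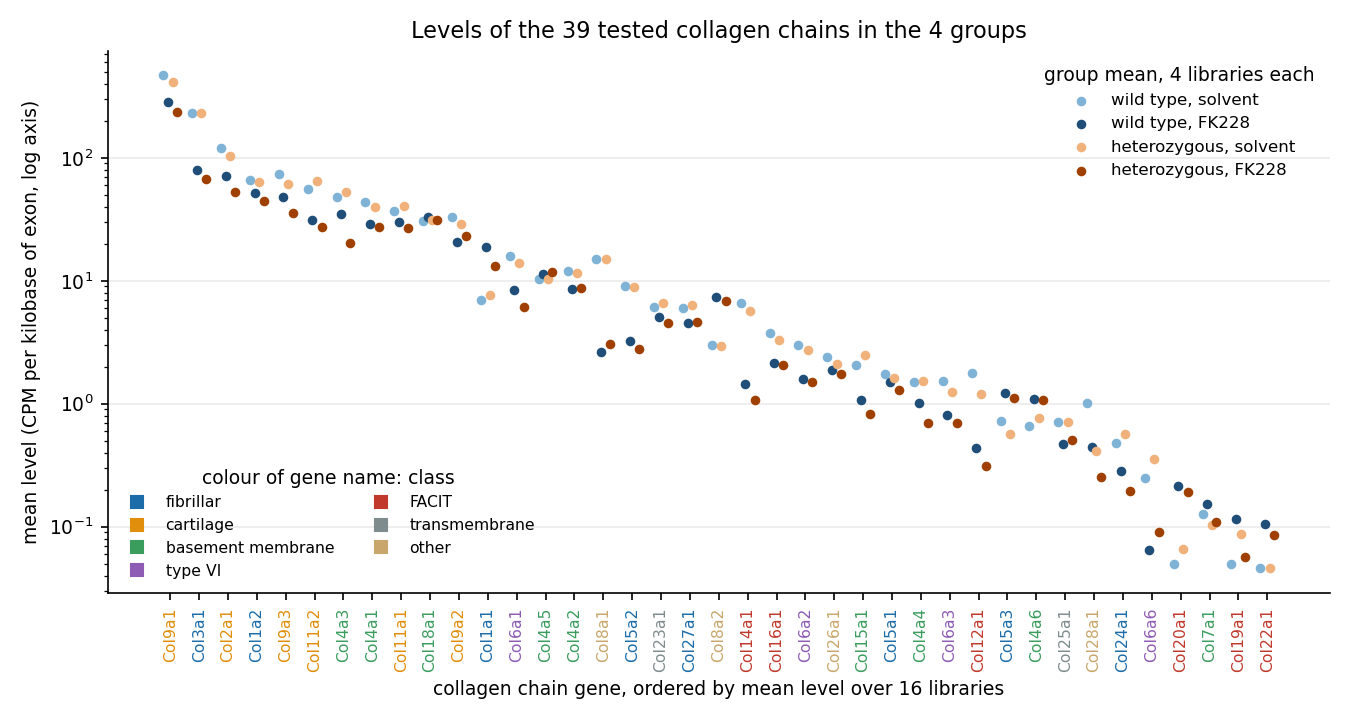
Mean level of each tested collagen chain in CPM per kilobase of merged exons (log axis) in the 4 groups, n = 4 libraries per group, with gene names coloured by class. Col9a1 and Col3a1 lead in solvent cultures; Col8a1 and Col14a1 are lower and Col1a1 and Col8a2 higher with FK228.

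With FK228, most collagen chains fell, in both genotypes. In wild-type cultures 23 of 39 chains fell, 5 rose and 11 were not called, beside 25.3% of all tested genes that fell and 23.7% that rose. In heterozygous cultures 23 fell, 4 rose and 12 were not called, beside 24.7% of genes that fell and 23.8% that rose. The median log2 fold change of the 39 chains was -0.59 in wild type and -0.60 in heterozygous cultures, and that of all tested genes -0.01 and 0.00. A fall or rise of at least 2-fold was called for 10 chains in wild type and 14 in heterozygous cultures. Of the 39 chains, 20 fell in both genotypes, and Col1a1, Col5a3, Col8a2 and Col20a1 rose in both. Groups of 4 libraries did not overlap for 20 lower and 5 higher chains in wild type (22.8% and 21.9% of all genes) and for 18 lower and 4 higher chains in heterozygous cultures (21.5% and 21.1%). In this mixed tissue, fewer cells of a type and less RNA per cell cannot be told apart.

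These calls are relative to the other genes of a library. Under scaling to the spike-in RNA the median over all genes shifted by -0.15 (log2) in wild type and by -0.72 in heterozygous cultures. With that scaling 4 chains rose and 24 fell in wild type (11.7% and 26.4% of all genes), and 0 rose and 31 fell in heterozygous cultures (4.71% and 62.6%). Higher genes went from 48.4% to 30.8% of all calls in wild type and from 49.0% to 7.003% in heterozygous cultures. The chains that fell in both genotypes kept their direction. This scaling moved values down, so their direction was bound to stay the same and only rises could be challenged.

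**Figure D2:**
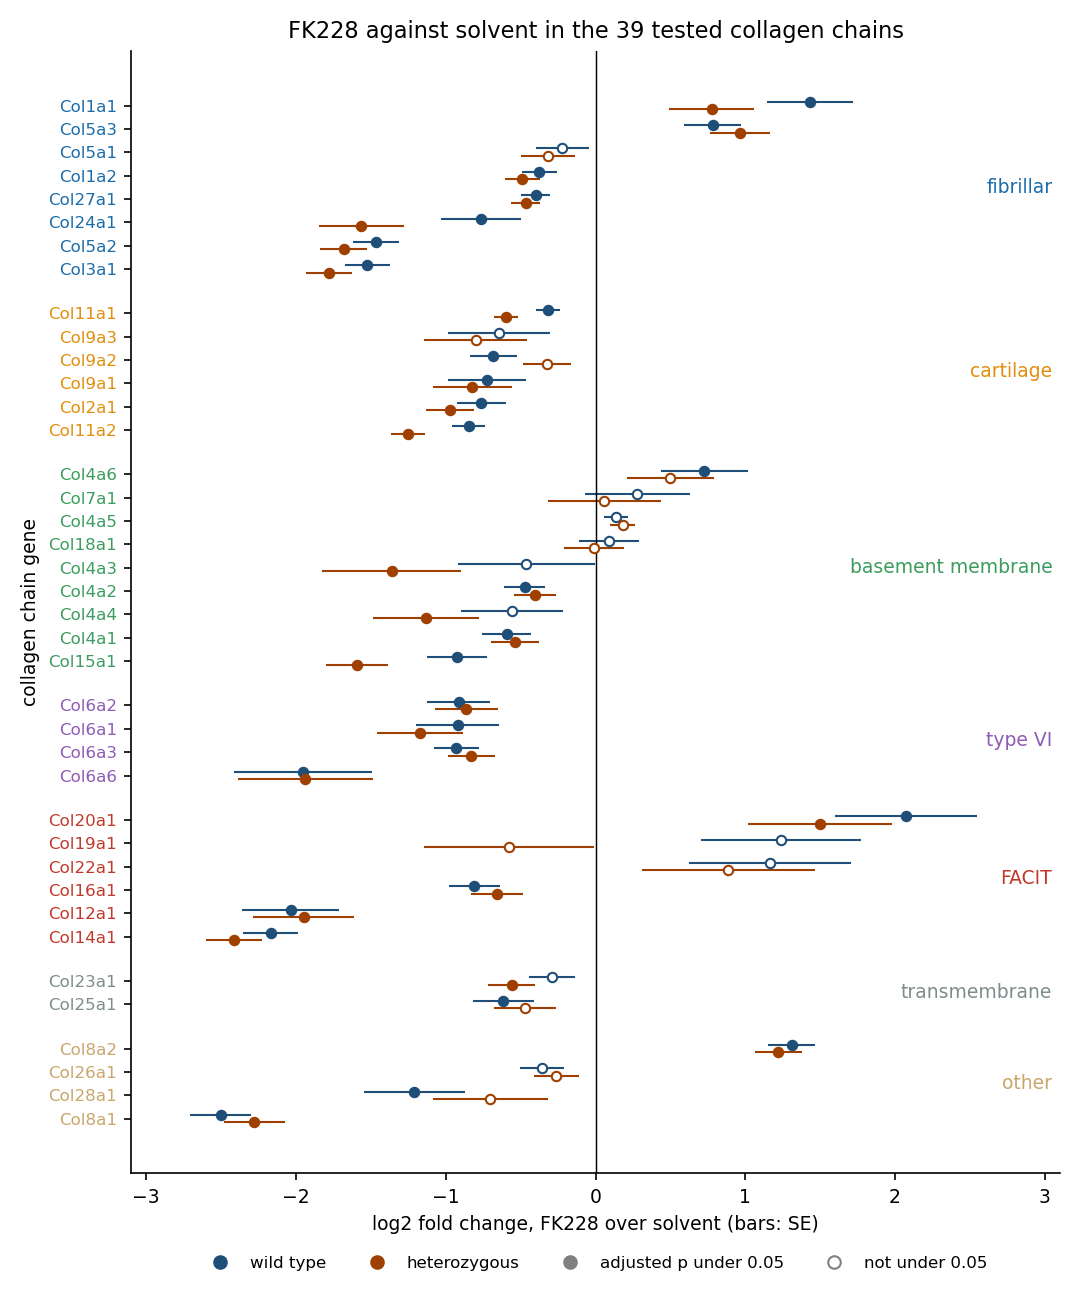
Log2 fold change of each tested chain with FK228 against solvent (points) with the SE of the model (bars), by class, in wild-type and heterozygous cultures; filled points have an adjusted p under 0.05. Col8a1 lies at -2.50 and -2.28 and Col14a1 at -2.17 and -2.41 in the 2 genotypes, and Col8a2 lies at 1.31 and 1.22.

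As a share of all gene counts, the 41 chains made up 0.948% ± 0.124 (SD, n = 4) in wild-type solvent cultures and 0.581% ± 0.0878 with FK228. The heterozygous cultures went from 0.897% ± 0.159 to 0.499% ± 0.0809. The ranges of treated and solvent libraries did not overlap in either genotype (0.469% to 0.684 against 0.837% to 1.08 in wild type, 0.381% to 0.558 against 0.692% to 1.08 in heterozygous). The share was 1.63-fold lower with FK228 in wild type and 1.80-fold lower in heterozygous cultures. By class, FACIT chains had the largest fold (2.83 and 2.68 in the 2 genotypes), and the fibrillar chains had 1.94 and 2.18. The chains of no other class had 2.11 and 1.98, and basement membrane chains had a small fold (1.23 and 1.45). Solvent and FK228 ranges were separate for FACIT and fibrillar chains. Ranges overlapped for basement membrane chains in both genotypes (0.0674% to 0.153 against 0.0864% to 0.106 in wild type). Cartilage ranges overlapped in wild type (0.377% to 0.572 against 0.220% to 0.379). In wild type 3 of 6 FACIT chains had a log2 fold change below 0, and the median of the 6 was 0.18. The cartilage chains held the largest share in every group, 0.464%, 0.297%, 0.421% and 0.252% for wild type in solvent, wild type with FK228, heterozygous in solvent and heterozygous plus FK228. Col9a1 and Col3a1 together gave 47.7% ± 3.72 of collagen counts in wild-type solvent cultures and 38.3% ± 2.84 with FK228.

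**Figure D3:**
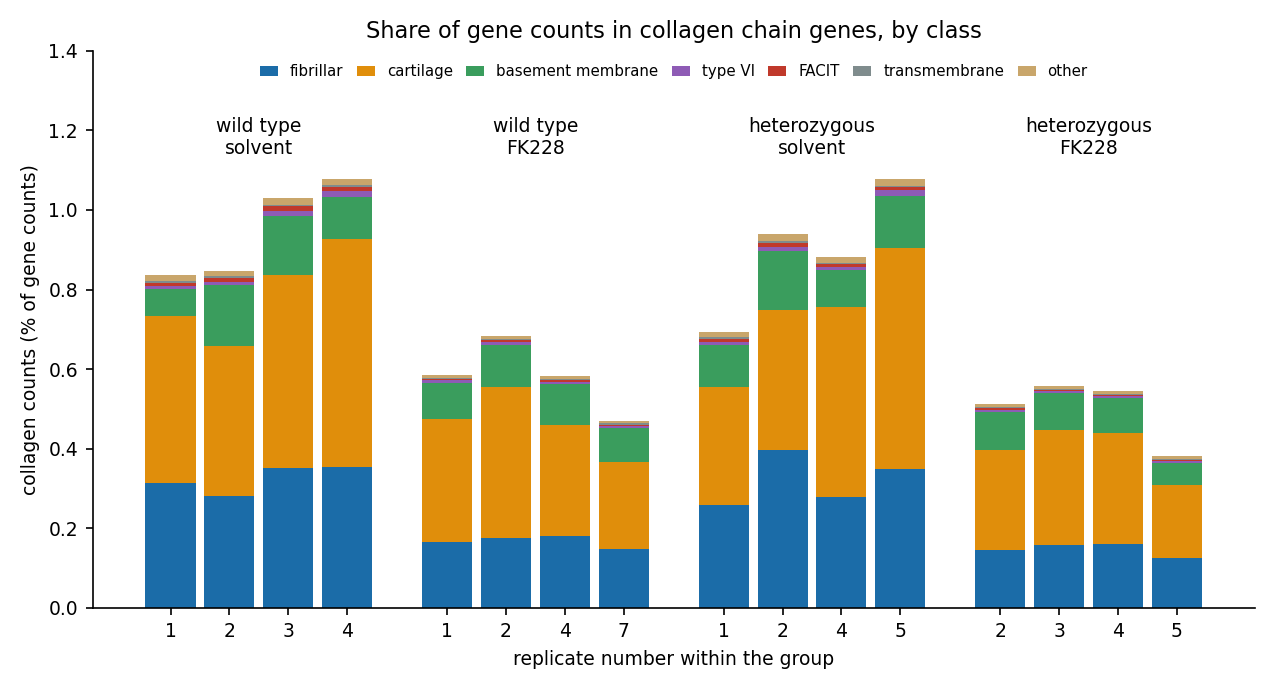
Collagen counts as a percent of all gene counts in each of the 16 libraries, stacked by class. The bars reach 0.837% to 1.08% in wild-type solvent libraries and 0.469% to 0.684% in wild-type FK228 libraries, and cartilage and fibrillar chains make up most of each bar.

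Among the 8 fibrillar chains, 5 fell and 2 rose in each genotype. Col3a1 (ENSMUSG00000026043, chr1:45311538-45349706 in GRCm38), the chain of type III collagen in the distensible connective tissue of skin, vessels and mesenchyme, was the fibrillar chain with the largest fall in wild type. It measured 2355, 1846, 2386 and 2428 CPM in wild-type solvent libraries and 718, 859.8, 929 and 626 CPM with FK228. The heterozygous libraries had 1779, 2724, 2054 and 2563 CPM in solvent and 642, 653, 815 and 547 CPM with FK228. Every treated library lay below every solvent library of its genotype. The log2 fold change was -1.52 (SE 0.15, adjusted p = 2.03e-07), a 2.88-fold fall, in wild type and -1.78 (SE 0.15, adjusted p = 3.17e-08), a 3.43-fold fall, in heterozygous cultures.

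Col5a2, a chain of type V collagen, which sits in the core of fibrils and limits their width, fell by an amount close to that of Col3a1. Its levels were 91.7, 79.6, 90.5 and 84.4 CPM in wild-type solvent libraries and 31.3, 43.1, 27.4 and 23.4 CPM with FK228, and 90.4, 90.7, 75.02 and 84.8 against 20.5, 31.7, 30.4 and 23.5 CPM in heterozygous ones. The groups were far apart, with log2 fold changes of -1.47 (SE 0.15, adjusted p = 4.68e-07) and -1.68 (SE 0.16, adjusted p = 1.03e-07). Col5a2 (chr1:45374321-45503282) lies tail to tail with Col3a1 on chromosome 1, 24614 bases away. The ratio of Col3a1 to Col5a2 per kilobase was 25.4 ± 2.24, 25.3 ± 5.87, 26.2 ± 4.82 and 24.9 ± 4.53 (SD, n = 4) in the 4 groups, in the order given above, and its ranges overlapped in all of them.

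The other type V chains behaved differently from Col5a2. Col5a3 rose, from 4.88 ± 0.871 to 8.37 ± 0.743 CPM in wild type and from 3.85 ± 1.15 to 7.55 ± 0.749 CPM in heterozygous cultures (SD, n = 4). The groups did not overlap in either genotype, with log2 fold changes of 0.78 (SE 0.19, adjusted p = 0.00262) and 0.97 (SE 0.20, adjusted p = 0.000634). With spike-in scaling the rise in heterozygous cultures was 0.27 (adjusted p = 0.293). Col5a1 was not called, except in heterozygous cultures without solvent replicate 1 (adjusted p = 0.0332) and with spike-in scaling (adjusted p = 0.000519). Its 95% interval ran from -0.57 to 0.12 in wild type and from -0.67 to 0.04 in heterozygous cultures, intervals that do not include the fall of Col5a2. Per kilobase, the ratio of Col5a1 to Col5a2 went from 0.195 ± 0.0232 to 0.473 ± 0.0680 in wild type and from 0.183 ± 0.0556 to 0.488 ± 0.138 in heterozygous cultures, with no overlap.

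The chains of type I collagen, the main collagen of bone, tendon and skin, moved in opposite directions. Col1a1 measured 36.5, 48.6, 56.4 and 40.4 CPM in wild-type solvent libraries and 140.5, 94.3, 100.3 and 155 CPM with FK228. Every treated wild-type library exceeded every solvent one, and the log2 fold change was 1.43 (SE 0.29, adjusted p = 0.000461). In heterozygous cultures Col1a1 measured 37.96, 91.7, 25.8 and 45.6 CPM in solvent and 80.5, 115, 87.1 and 61.1 CPM with FK228. Here the groups overlapped, since solvent replicate 2 exceeded 3 of the 4 treated libraries. The log2 fold change was 0.78 (SE 0.29, adjusted p = 0.0321), and this call was lost without heterozygous solvent replicate 1, 4 or 5 or FK228 replicate 3 or 4 (adjusted p 0.0558 to 0.116). It was also lost with spike-in scaling (0.06, adjusted p = 0.862), with only the groups compared (adjusted p = 0.0765) and with the share of reads outside genes as a covariate (0.62, adjusted p = 0.0818), and in 10 of 29 alternative analyses in all. Col1a2 fell, with log2 fold changes of -0.38 (SE 0.12, adjusted p = 0.0123) and -0.49 (SE 0.12, adjusted p = 0.00195), from 827 ± 73.1 to 638 ± 46.8 CPM in wild type and from 784 ± 168 to 558 ± 55.03 CPM in heterozygous cultures (SD, n = 4).

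The ratio of Col1a1 to Col1a2 per kilobase was 0.0850 to 0.121 in wild-type solvent libraries and 0.263 to 0.508 with FK228. In heterozygous libraries it was 0.0714 to 0.171 and 0.228 to 0.346. The treated libraries were higher without overlap in both genotypes, although Col1a1 alone overlapped in the heterozygous groups. The ratio of Col3a1 to Col1a2 went the other way, from 3.45 ± 0.376 to 1.55 ± 0.246 in wild type and from 3.698 ± 0.306 to 1.52 ± 0.301 in heterozygous cultures. The remaining fibrillar chains, Col24a1 and Col27a1, both fell, with log2 fold changes of -0.77 and -0.40 in wild type and -1.56 and -0.47 in heterozygous cultures.

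The upstream windows of the fibrillar chain with the largest fall and of its abundant relative Col1a2 are shown because the genes lay in one class and fell to different extents. The windows run from 250 bases before to 50 after the RefSeq start in GRCm38.p6, and all 32851 windows of that table served as background. Of the 41 chains, 32 had a window (35 windows in all). The CCAAT box was searched as CCAAT and, for the other strand, as ATTGG. The GC box was searched as GGGCGG and its reverse complement CCGCCC, and the TATA box as TATAAA and its reverse complement TTTATA. Matches are in capitals. Col3a1 (chr1:45311288-45311587, plus strand) held 1 TATA box, and Col1a2 (chr6:4505368-4505667, plus strand) held 2 CCAAT boxes and 2 GC boxes.
Col3a1: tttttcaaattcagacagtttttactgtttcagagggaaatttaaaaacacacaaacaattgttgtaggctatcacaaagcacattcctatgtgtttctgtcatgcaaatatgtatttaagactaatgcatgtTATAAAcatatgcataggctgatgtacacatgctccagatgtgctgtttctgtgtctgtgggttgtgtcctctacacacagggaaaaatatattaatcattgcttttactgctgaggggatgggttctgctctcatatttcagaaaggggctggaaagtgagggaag
Col1a2: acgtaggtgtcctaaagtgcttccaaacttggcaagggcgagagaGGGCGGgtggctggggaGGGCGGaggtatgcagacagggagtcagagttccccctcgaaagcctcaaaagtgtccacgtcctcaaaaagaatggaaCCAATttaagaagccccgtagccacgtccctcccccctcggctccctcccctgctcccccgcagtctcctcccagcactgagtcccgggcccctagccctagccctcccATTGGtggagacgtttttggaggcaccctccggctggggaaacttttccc
Over all RefSeq windows, 37.4% held a CCAAT box, 35.7% a GC box and 13.6% a TATA box. Among the 35 collagen windows these shares were 31.4%, 62.9% and 8.57%. A match of letters is a description of the window and not a bound site.

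Of the 6 cartilage chains, 5 fell in wild type and 4 in heterozygous cultures, and none rose in either. Col9a1, a chain of type IX collagen on the surface of type II fibrils and in the tectorial membrane, had the highest level of all collagen chains. It measured 2195, 1841, 2467 and 2995 CPM in wild-type solvent libraries and 1527, 1958, 1273 and 989 CPM with FK228, and 1122, 1607, 2619 and 3083 against 1244, 1388, 1331 and 801 CPM in heterozygous ones. Solvent and treated libraries overlapped in both genotypes. The log2 fold change was -0.73 (SE 0.26, adjusted p = 0.0289) in wild type and -0.82 (SE 0.26, adjusted p = 0.0149) in heterozygous cultures. The wild-type call was lost without wild-type solvent replicate 3 or 4 or FK228 replicate 4 or 7 (adjusted p 0.0559 to 0.0968), and the heterozygous call without solvent replicate 5 (0.0745) or FK228 replicate 5 (0.0535). With the share of reads outside genes as a covariate Col9a1 was not called in either genotype, at -0.42 (adjusted p = 0.118) in wild type and -0.43 (adjusted p = 0.125) in heterozygous cultures.

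Col2a1, the chain of type II collagen, the main collagen of cartilage, fell without overlap. It went from 1072, 925, 1152 and 1313 CPM to 652, 865, 593 and 522 CPM in wild type and from 791, 819.9, 1064 and 1153 CPM to 462, 562, 553 and 377 CPM in heterozygous libraries. The log2 fold changes were -0.76 (SE 0.16, adjusted p = 0.000732) and -0.97 (SE 0.16, adjusted p = 7.59e-05). The type XI chains Col11a1 and Col11a2, which join type II fibrils and are both deafness genes, also fell in both genotypes, and Col11a2 had the smallest adjusted p of the class in each.

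Col11a2 measured 464, 326, 326 and 422 CPM in wild-type solvent libraries and 196, 236, 222 and 201 CPM with FK228. In heterozygous libraries it measured 452, 405, 469 and 458 CPM in solvent and 161, 205, 201 and 183 CPM with FK228. The groups were separate in both genotypes, with log2 fold changes of -0.85 (SE 0.11, adjusted p = 5.37e-06) and -1.25 (SE 0.11, adjusted p = 5.41e-08). Col11a1 was the steadiest chain of wild-type solvent cultures, at 474 ± 20.2 CPM (SD, n = 4), and fell less than Col11a2, with log2 fold changes of -0.32 (SE 0.08, adjusted p = 0.00376) and -0.60 (SE 0.08, adjusted p = 9.89e-06). The ratio of Col11a1 to Col11a2 per kilobase went from 0.678 ± 0.0978 to 0.961 ± 0.0629 in wild type and from 0.625 ± 0.0696 to 0.985 ± 0.119 in heterozygous cultures, without overlap. Among the partners of Col9a1 in type IX collagen, Col9a2 fell in wild type, at -0.68 (SE 0.16, adjusted p = 0.00159), and was not called in heterozygous cultures (-0.32, adjusted p = 0.101). Col9a3 was not called in either, with intervals of -1.31 to 0.03 and -1.47 to -0.12.

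**Figure D4:**
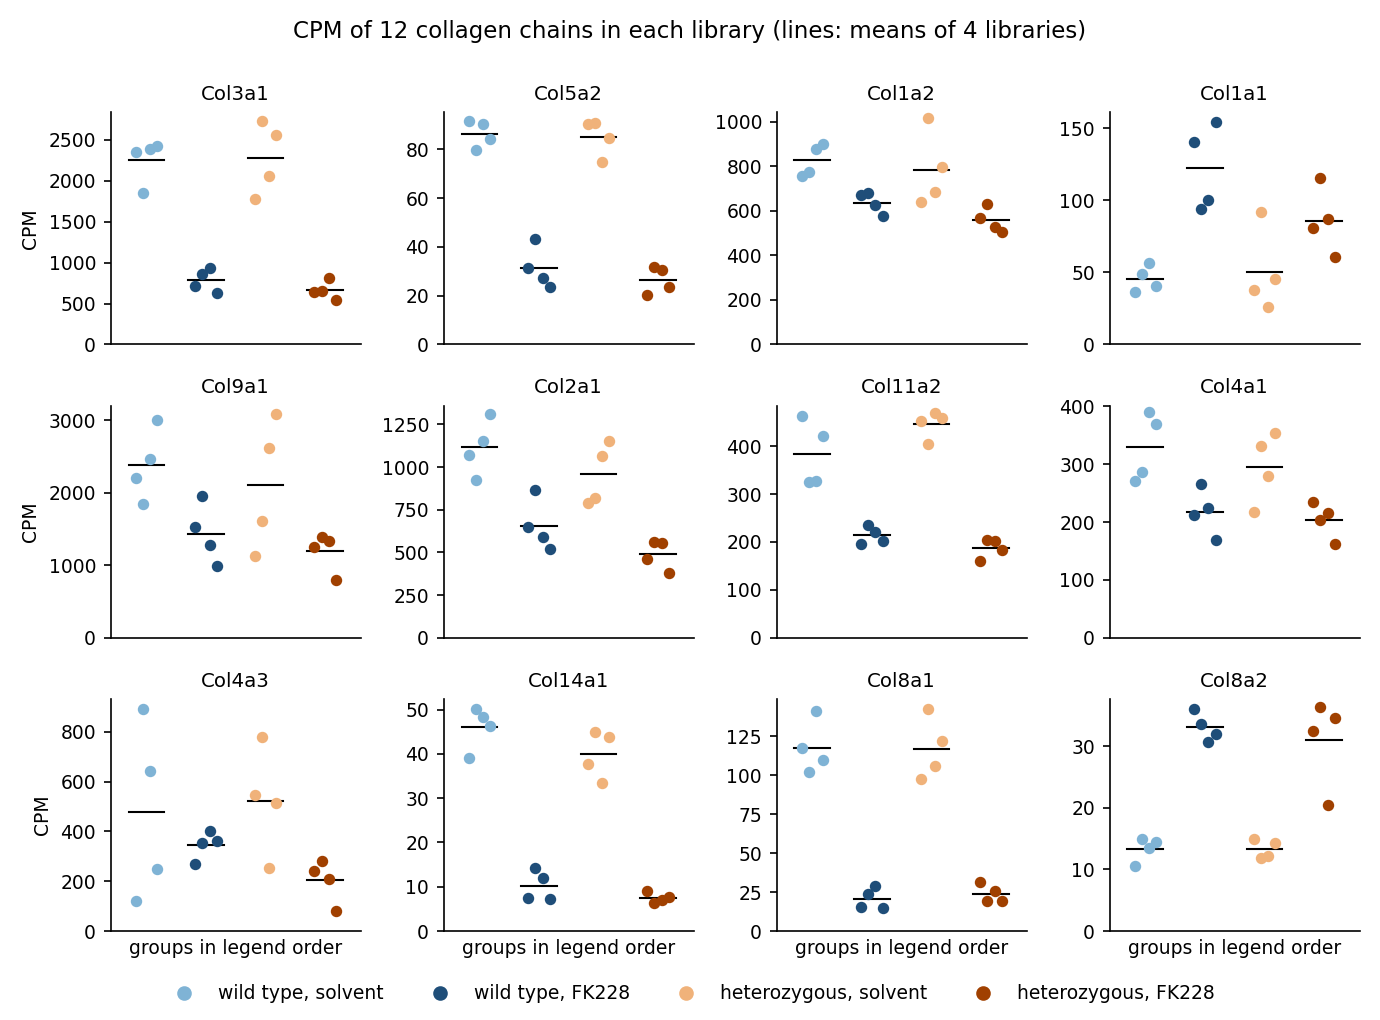
CPM of 12 collagen chains in each library of the 4 groups (points, linear axis). Solvent and FK228 libraries are separate in both genotypes for Col3a1, Col5a2, Col1a2, Col2a1, Col11a2, Col14a1, Col8a1 and Col8a2, and overlap in at least 1 genotype for Col1a1, Col9a1, Col4a1 and Col4a3.

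Of the 9 basement membrane chains, 3 fell and 1 rose in wild type, and 5 fell and 0 rose in heterozygous cultures. Among all tested genes 25.3% fell and 23.7% rose in wild type, and 24.7% and 23.8% in heterozygous cultures. The share of this class called in wild type, 44.4%, was near that of all genes, 49.0%. Col4a1 and Col4a2, the chains of the common type IV network, lie head to head on chromosome 8 and overlap by 22 bases in the annotation (chr8:11198423-11312826, minus strand, and chr8:11312805-11449287, plus strand). The counts do not use strand, so reads in that overlap cannot be told apart. Their promoter windows share 78 bases (chr8:11312777-11312854) and are shown because the genes fell together. Col4a1 (chr8:11312777-11313076, minus strand) held 1 CCAAT box and 1 GC box, and Col4a2 (chr8:11312555-11312854, plus strand) held 1 CCAAT box and 3 GC boxes.
Col4a1: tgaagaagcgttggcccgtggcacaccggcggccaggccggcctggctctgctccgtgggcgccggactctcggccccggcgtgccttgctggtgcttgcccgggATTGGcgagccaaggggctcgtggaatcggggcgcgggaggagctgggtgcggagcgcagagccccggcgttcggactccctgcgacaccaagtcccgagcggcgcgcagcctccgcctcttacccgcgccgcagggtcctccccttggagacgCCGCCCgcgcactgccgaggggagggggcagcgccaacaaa
Col4a2: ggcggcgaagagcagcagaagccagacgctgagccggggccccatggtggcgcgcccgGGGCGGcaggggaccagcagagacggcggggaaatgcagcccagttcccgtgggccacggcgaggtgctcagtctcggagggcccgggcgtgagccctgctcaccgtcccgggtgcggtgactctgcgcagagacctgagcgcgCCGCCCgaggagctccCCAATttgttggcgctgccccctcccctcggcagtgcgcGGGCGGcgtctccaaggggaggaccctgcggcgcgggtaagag
Col4a1 measured 271, 286, 389.9 and 370.2 CPM in wild-type solvent libraries and 213, 266, 225 and 169 CPM with FK228. In heterozygous libraries it measured 218, 331, 279 and 354 CPM and 235, 204, 215 and 161 CPM. The wild-type groups did not overlap and the heterozygous groups did. The log2 fold changes were -0.59 (SE 0.16, adjusted p = 0.00514) and -0.54 (SE 0.16, adjusted p = 0.0104) for Col4a1, and -0.47 (SE 0.14, adjusted p = 0.00786) and -0.40 (SE 0.14, adjusted p = 0.0212) for Col4a2. The Col4a2 call in heterozygous cultures was lost without solvent replicate 2 or 5 or FK228 replicate 5 (adjusted p 0.0521 to 0.0775). The ratio of Col4a1 to Col4a2 per kilobase overlapped between solvent and FK228 libraries in both genotypes, with means of 3.705, 3.403, 3.4002 and 3.12 in the 4 groups.

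Col4a3 and Col4a4, which lie head to head on chromosome 1 with 71 bases between them (chr1:82586921-82722059 and chr1:82448423-82586849), spread widely among wild-type solvent libraries, with coefficients of variation of 74.4% and 56.9%. Col4a3 measured 121, 890.4, 642 and 249 CPM there, a range wider than the difference between any group means, and 268, 353, 400.3 and 361 CPM with FK228. Heterozygous libraries had 544, 780.0, 254 and 514 CPM in solvent and 243, 281, 209 and 82.6 CPM with FK228. The solvent and treated groups overlapped in both genotypes. The lowest solvent value of each genotype, in wild-type replicate 1 and heterozygous replicate 4, came from the libraries with fewest reads outside genes. Wild-type solvent replicate 4, at 249 CPM, was also low, and 16.2% of its reads lay outside genes. Whether the share of reads outside genes caused low values was not tested. Col4a3 was not called in wild type (-0.46, 95% interval -1.36 to 0.43, adjusted p = 0.423), where the value without solvent replicate 2 was 0.03. It fell in heterozygous cultures, at -1.36 (SE 0.46, adjusted p = 0.0216), a call that was lost without solvent replicate 2 (adjusted p = 0.0726) or FK228 replicate 5 (0.0661). With the share of reads outside genes as a covariate, Col4a3 was likewise called in heterozygous cultures only. The same held without the libraries of lowest share. Col4a4 measured 8.45, 24.2, 23.1 and 7.64 CPM in wild-type solvent libraries, so replicates 1 and 4 were low and 2 and 3 high for both genes. It was not called in wild type (-0.56, adjusted p = 0.183) and fell in heterozygous cultures, at -1.13 (SE 0.35, adjusted p = 0.0126).

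Col4a5 and Col4a6, head to head on the X chromosome with 1308 bases between them, did not fall with the TMM scaling. Col4a5 measured 60.2, 66.2, 69.3 and 79.8 CPM in wild-type solvent libraries and 70.9, 77.3, 79.2 and 75.3 CPM with FK228. It was not called (0.14, 95% interval -0.03 to 0.30, in wild type and 0.18, 0.02 to 0.35, in heterozygous cultures), although all 4 treated heterozygous libraries exceeded the solvent ones. Without wild-type solvent replicate 4 it was called in both (adjusted p = 0.0354 and 0.0497), and limma called it in heterozygous cultures (0.0403). That pool had no Y-linked count, and neither had wild-type FK228 replicate 2. With sex mix as a covariate Col4a5 was not called in either genotype. With spike-in scaling its sign turned, to -0.02 in wild type and -0.54 in heterozygous cultures (adjusted p = 0.00529). Col4a6 rose in wild type, by 0.73 (SE 0.29, adjusted p = 0.0438), with overlapping groups, a call that 15 of 29 alternative analyses lost. These included the analysis with sex mix as a covariate (0.72, adjusted p = 0.0530). In heterozygous cultures Col4a6 was at 0.50 (adjusted p = 0.167; 0.0353 without solvent replicate 2), and at -0.22 with spike-in scaling. The ratio of Col4a1 to Col4a5 per kilobase went from 4.29 ± 0.527 to 2.59 ± 0.447 in wild type and from 3.88 ± 1.07 to 2.31 ± 0.279 in heterozygous cultures, without overlap.

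Col15a1 and Col18a1, relatives that sit in basement membranes of vessels, muscle and epithelia, differed. Col15a1 measured 14.2, 9.79, 13.01 and 14.997 CPM in wild-type solvent libraries and 5.62, 8.46, 7.67 and 5.66 CPM with FK228, and 10.6, 18.2, 15.8 and 18.4 against 6.2001, 5.86, 4.93 and 3.86 CPM in heterozygous ones. All treated libraries were lower, with log2 fold changes of -0.93 (SE 0.20, adjusted p = 0.000874) and -1.59 (SE 0.21, adjusted p = 5.24e-06). Col18a1, the precursor of endostatin, averaged 217 ± 34.2, 231 ± 37.02, 221 ± 67.7 and 219 ± 52.8 CPM (SD, n = 4) in the 4 groups. It was not called, with intervals of -0.31 to 0.49 in wild type and -0.41 to 0.39 in heterozygous cultures. With spike-in scaling Col18a1 stood at -0.08 in wild type and fell by 0.69 in heterozygous cultures (adjusted p = 0.00903). Col7a1, the anchoring fibril chain, was not called in either genotype.

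All 4 tested chains of type VI collagen, which forms beaded filaments around cells, fell in both genotypes. Col6a1 went from 70.01 ± 24.6 to 36.97 ± 12.3 CPM in wild type and from 60.5 ± 23.3 to 26.8 ± 5.22 CPM in heterozygous cultures (SD, n = 4), with log2 fold changes of -0.92 (SE 0.28, adjusted p = 0.0106) and -1.17 (SE 0.29, adjusted p = 0.00234). Wild-type groups overlapped, and the call was lost without solvent replicate 4 (adjusted p = 0.0521). Col6a2, its partner on chromosome 10, fell without overlap, at -0.91 (SE 0.21, adjusted p = 0.00142) and -0.86 (SE 0.21, adjusted p = 0.00259). Col6a3 measured 17.99, 16.01, 16.9 and 22.4 CPM in wild-type solvent libraries and 8.91, 10.9, 9.78 and 8.89 CPM with FK228. It too was lower in all treated libraries, with log2 fold changes of -0.93 (SE 0.15, adjusted p = 6.25e-05) and -0.83 (SE 0.16, adjusted p = 0.000250). Col6a6 was scarce, at 2.299 and 0.589 CPM in wild type and 3.24 and 0.827 CPM in heterozygous cultures, and fell, at -1.95 (SE 0.46, adjusted p = 0.00185) and -1.94 (SE 0.45, adjusted p = 0.00163). The chains that assemble together kept overlapping ratios: Col6a1 to Col6a2 per kilobase averaged 5.33 and 5.26 in wild type and 4.9002 and 4.06 in heterozygous cultures. Col6a5, next to Col6a6 on chromosome 9, had no count in most libraries and was not tested.

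Of the 6 FACIT chains, which attach to the surface of fibrils, 3 fell and 1 rose in each genotype. Col14a1, a chain that binds type I fibrils and limits their lateral growth, measured 39.1, 50.2, 48.4 and 46.2 CPM in wild-type solvent libraries and 7.55, 14.3, 11.9 and 7.19 CPM with FK228. In heterozygous libraries it measured 37.6, 45.04, 33.5 and 43.8 CPM and 8.998, 6.41, 7.03 and 7.63 CPM. No treated library reached the lowest solvent library, and the falls were 4.501-fold (-2.17 (SE 0.18, adjusted p = 3.05e-08)) and 5.32-fold (-2.41 (SE 0.19, adjusted p = 1.22e-08)). Col12a1, its close relative, measured 15.5, 32.6, 35.95 and 24.5 CPM in wild-type solvent libraries and 6.87, 5.44, 5.74 and 8.32 CPM with FK228, and 21.3, 24.3, 11.7 and 15.8 against 8.01, 5.86, 2.57 and 2.52 CPM in heterozygous ones. The groups were again separate, at -2.04 (SE 0.32, adjusted p = 4.48e-05) and -1.95 (SE 0.34, adjusted p = 0.000114). Col16a1 fell, with log2 fold changes of -0.81 and -0.66.

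Col20a1 rose from very low levels, 0.181, 0.110, 0.337 and 0.402 CPM in wild-type solvent libraries to 1.703, 0.604, 1.39 and 0.679 CPM with FK228. The heterozygous libraries went from 0.350, 0.393, 0.337 and 0.274 CPM to 1.36, 0.758, 0.541 and 1.26 CPM. These are 2 to 30 counts per library, so counting error is a large part of each value. The log2 fold changes were 2.07 (SE 0.47, adjusted p = 0.00137) and 1.50 (SE 0.48, adjusted p = 0.0153), and the heterozygous call was lost without FK228 replicate 2 (adjusted p = 0.0525), with limma (0.0527) and with spike-in scaling (0.82, adjusted p = 0.167). Col19a1, tail to tail with Col9a1 on chromosome 1, had 1 to 19 counts per library and opposite signs in the genotypes, 1.24 (SE 0.53, adjusted p = 0.0628) and -0.58 (SE 0.57, adjusted p = 0.421). Neither was called, nor was the difference between them (-1.82, adjusted p = 0.832). The wild-type value was called without wild-type solvent replicate 2 (adjusted p = 0.0433), heterozygous FK228 replicate 3 or 5 (0.0499 and 0.0498), and with only the groups compared (0.0272). Col22a1 was not called.

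Among the transmembrane chains, Col23a1 fell in heterozygous cultures, at -0.56 (SE 0.16, adjusted p = 0.00660), and was not called in wild type (-0.29, 95% interval -0.59 to 0.01). It averaged 38.1 ± 10.1 and 25.9 ± 2.53 CPM in those heterozygous groups. Col25a1, a membrane collagen known from neurons and from innervation of muscle, fell in wild type, at -0.62 (SE 0.20, adjusted p = 0.0180), from 9.27 ± 0.469 to 6.04 ± 0.951 CPM. In heterozygous cultures it was at -0.47 (adjusted p = 0.0694), and was called without solvent replicate 5 (adjusted p = 0.00444). The wild-type call for Col25a1 was lost without FK228 replicate 7 (adjusted p = 0.0640). Whether these effects differ between genotypes was tested by the interaction term, which called neither chain.

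The chains of type VIII collagen, a short-chain network collagen of the corneal Descemet's membrane and of vessel walls, moved in opposite directions. Col8a1 measured 118, 102, 141 and 109.6 CPM in wild-type solvent libraries and 15.4, 23.99, 28.9 and 14.8 CPM with FK228. In heterozygous libraries it measured 97.6, 143, 106 and 122 CPM and 31.8, 19.6, 25.7 and 19.4 CPM. This was the largest fall of any chain in wild type, 5.67-fold (-2.50 (SE 0.20, adjusted p = 2.18e-08)), and it was 4.85-fold (-2.28 (SE 0.20, adjusted p = 5.47e-08)) in heterozygous cultures. Col8a2 measured 10.6, 14.9, 13.5 and 14.4 CPM in wild-type solvent libraries and 35.99, 33.6, 30.6 and 31.98 CPM with FK228, and 14.9, 11.8, 12.1 and 14.3 against 32.5, 36.3, 20.4 and 34.5 CPM in heterozygous ones. All treated libraries were higher. Col8a2 rose by 1.31 (SE 0.15, adjusted p = 1.80e-06) and 1.22 (SE 0.16, adjusted p = 4.51e-06), and with spike-in scaling it was still called in wild type (adjusted p = 0.000342), while the heterozygous value of 0.50 was not (adjusted p = 0.05003).

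The ratio of Col8a1 to Col8a2 per kilobase was 3.92 to 6.37 in wild-type solvent libraries and 0.245 to 0.540 with FK228. In heterozygous libraries it was 3.76 to 6.93 in solvent and 0.310 to 0.723 with FK228. Per kilobase of merged exons, Col8a1 was thus the more abundant chain in all 8 solvent libraries and Col8a2 in all 8 treated ones. A ratio within a library does not depend on its scaling, but it does depend on the exon lengths used. In CPM without division by length, Col8a1 exceeded Col8a2 in heterozygous FK228 replicate 4. The genes are on different chromosomes, Col8a1 at chr16:57624258-57754737 and Col8a2 at chr4:126286793-126314330. Their windows are shown because the genes moved apart. Col8a1 (chr16:57754688-57754987, minus strand) and Col8a2 (chr4:126286544-126286843, plus strand) each held 4 GC boxes and neither a CCAAT nor a TATA box.
Col8a1: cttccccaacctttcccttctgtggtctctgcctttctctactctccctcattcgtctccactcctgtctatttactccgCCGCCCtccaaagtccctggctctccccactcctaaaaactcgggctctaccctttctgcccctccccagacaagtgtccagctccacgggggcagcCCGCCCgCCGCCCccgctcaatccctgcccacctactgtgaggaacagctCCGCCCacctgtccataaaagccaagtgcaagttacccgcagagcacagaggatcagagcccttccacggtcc
Col8a2: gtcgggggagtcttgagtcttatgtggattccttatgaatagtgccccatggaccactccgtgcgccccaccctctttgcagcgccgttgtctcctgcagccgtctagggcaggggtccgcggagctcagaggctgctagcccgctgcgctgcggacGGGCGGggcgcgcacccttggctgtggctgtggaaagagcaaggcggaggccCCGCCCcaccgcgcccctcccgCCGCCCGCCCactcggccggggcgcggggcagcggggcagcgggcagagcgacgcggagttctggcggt
Of the other members of this group, Col28a1 fell in wild type, at -1.21 (SE 0.34, adjusted p = 0.00626). It was at -0.70 in heterozygous cultures (adjusted p = 0.139; 0.0404 without solvent replicate 1), and Col26a1 was not called.

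**Figure D5:**
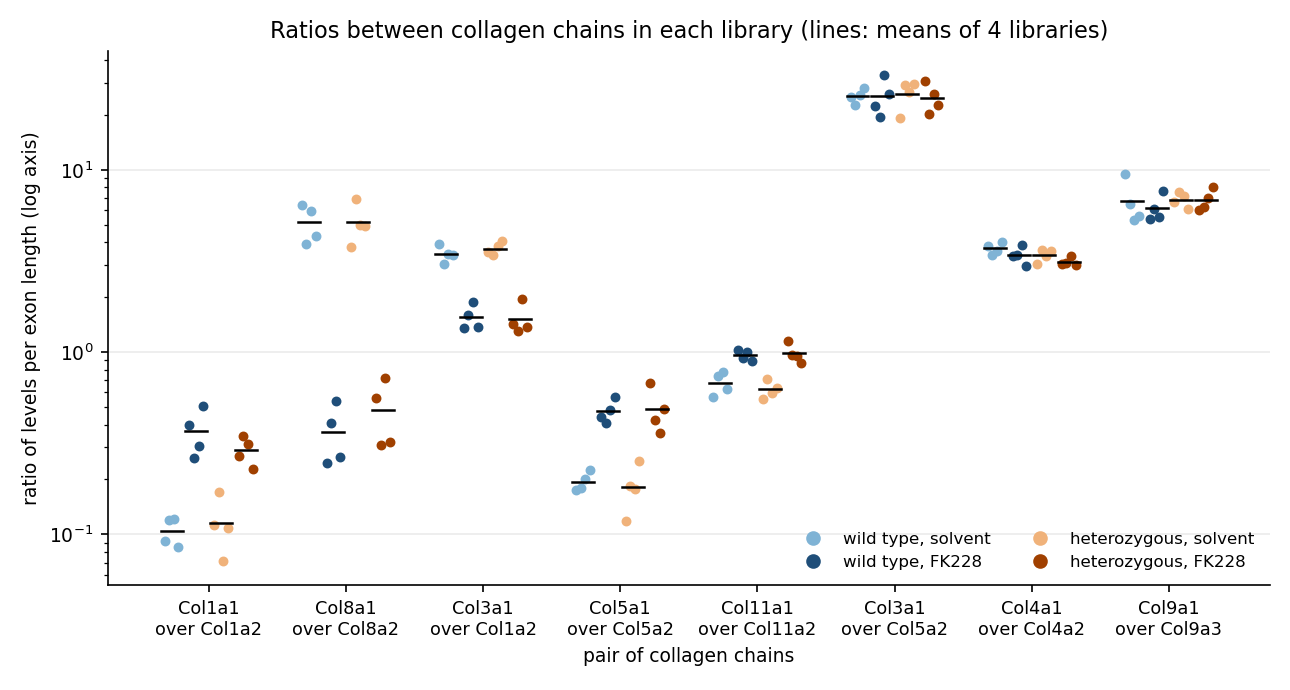
Ratios between collagen chains per kilobase of merged exons in each library (points, log axis) for the 4 groups. Col8a1 over Col8a2 runs from 3.76 to 6.93 in solvent libraries and from 0.245 to 0.723 with FK228, while Col3a1 over Col5a2 and Col4a1 over Col4a2 overlap between treatments in both genotypes.

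No collagen chain was found to change with genotype by edgeR's test. In solvent, 0 of 39 chains were called between heterozygous and wild-type cultures (2.03% of all genes), 1 had an unadjusted p under 0.05, and DESeq2 called 1 (3.21% of all genes). With FK228, 0 chains were called (2.14% of all genes), 3 had an unadjusted p under 0.05, and DESeq2 called 0 (3.73%). The chain nearest to a call in solvent was Col28a1, a type VI-like chain known from peripheral nerve. It measured 6.15, 5.28, 4.82 and 3.79 CPM in wild-type solvent libraries and 0.909, 3.404, 2.09 and 1.71 CPM in heterozygous ones. The heterozygous libraries were all lower, as for 3.13% of all genes, and the log2 fold change was -1.30 (SE 0.34, adjusted p = 0.0600). DESeq2 gave an adjusted p of 0.0143. Col3a1 was at 0.02 (95% interval -0.27 to 0.30) in solvent and -0.24 (-0.53 to 0.05) with FK228. With FK228, 32 of 39 chains had a value below 0, beside 8713 of 17125 genes, and the median was -0.19 against 0.00. Col2a1 was at -0.43 (SE 0.16, adjusted p = 0.233) there, and Col14a1 at -0.44 (adjusted p = 0.327). The genotype groups with FK228 overlapped for all 39 chains, while 4.46% of all genes were higher and 4.37% lower without overlap.

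The FK228 effect was not found to differ between genotypes for any chain. The interaction called 0 of 39 chains with edgeR (0.0234% of all genes) and 0 with DESeq2 (0.196%), and 4 had an unadjusted p under 0.05. These were Col11a2 at -0.40 (95% interval -0.71 to -0.10, adjusted p = 0.741), Col11a1 at -0.28, Col15a1 at -0.67 and Col19a1 at -1.82. For Col1a1 the interval of the difference was -1.44 to 0.13 and for Col3a1 -0.66 to 0.15. The comparisons of genotype and of treatment share libraries, so their values are not independent. With spike-in scaling, 35 chains were lower in heterozygous cultures with FK228 (74.5% of all genes) and 12 in the interaction (23.7%).

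Genes that make, modify and bind collagen were counted from 8 lists, beside 25.3% of all tested genes that fell and 23.7% that rose in wild type and 24.7% and 23.8% in heterozygous cultures. In 15 genes of prolyl and lysyl modification, of which 14 were tested, 1 rose and 5 fell in wild type and 3 rose and 5 fell in heterozygous cultures. Plod3, a lysyl hydroxylase and glycosyltransferase, fell, at -0.73 (adjusted p = 8.94e-07) and -0.92 (adjusted p = 5.70e-08), and the prolyl hydroxylase subunit P4ha2 rose by 0.59 (adjusted p = 0.00120) and 0.67 (adjusted p = 0.000393). Among 10 genes of folding and export, 7 fell and 1 rose in each genotype. Serpinh1, which encodes the collagen chaperone HSP47, was abundant, at 3885 ± 214 CPM in wild-type solvent cultures and 2436 ± 128 CPM with FK228, and fell, at -0.67 (adjusted p = 2.77e-07) and -0.88 (adjusted p = 1.03e-08). Fkbp10, a prolyl isomerase of procollagen, fell in wild type, at -0.75 (adjusted p = 1.30e-06), while the endoplasmic reticulum cation channel gene Tmem38b rose by 0.89 (adjusted p = 0.000182). Of 13 genes of propeptide removal and crosslinking, 7 fell in wild type, 6 in heterozygous cultures and none rose. The enhancer of procollagen C-proteinase Pcolce fell, at -1.07 (adjusted p = 4.72e-07) and -1.10 (adjusted p = 3.22e-07), and the N-proteinase Adamts2 fell, at -0.64 (adjusted p = 1.94e-05) and -0.77 (adjusted p = 2.95e-06).

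The genes that break collagen down and that sense it mostly fell as well. Of 12 tested genes of breakdown and its inhibitors, 9 fell in wild type and 10 in heterozygous cultures, and none rose. The collagen-cutting cathepsin Ctsk fell, at -1.94 (adjusted p = 2.38e-08) and -2.26 (adjusted p = 5.92e-09), and the membrane collagenase Mmp14 fell, at -1.65 (adjusted p = 4.60e-08) and -1.74 (adjusted p = 2.21e-08). Of 8 tested receptors, 6 fell in each genotype. Ddr2, a receptor tyrosine kinase for fibrillar collagen, went from 76.4 ± 7.54 to 11.8 ± 4.34 CPM in wild type and fell, at -2.70 (adjusted p = 5.15e-09) and -2.53 (adjusted p = 9.66e-09). Lair1, a collagen receptor of leukocytes, fell, at -2.85 (adjusted p = 5.67e-06) and -3.43 (adjusted p = 1.62e-06). The receptor gene Gp6 had no count in any library. Of 14 proteoglycans and proteins that bind fibrils, 11 fell and 1 rose in each genotype. Ogn and Aspn, small leucine-rich proteoglycans, fell in wild type, at -1.53 (adjusted p = 4.84e-09) and -2.19 (adjusted p = 2.80e-08), and Fmod rose by 0.59 (adjusted p = 0.0279).

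The remaining lists concern the partners of types IV and II. Of 15 laminins, nidogens and perlecan, 4 rose and 2 fell in wild type, and 3 rose and 3 fell in heterozygous cultures. These counts were near or below the shares of all tested genes (23.7% higher and 25.3% lower in wild type, 23.8% and 24.7% in heterozygous cultures). Lama5 and Lamc3 rose by 0.63 (adjusted p = 0.00244) and 1.33 (adjusted p = 0.00325) in wild type, and Lama4 and Lamb1 fell, at -0.54 (adjusted p = 0.000640) and -0.26 (adjusted p = 0.00857). Of 12 tested genes of cartilage matrix and its regulators, 7 fell in each genotype, and 2 rose in wild type and 1 in heterozygous cultures. The transcription factor genes Trps1 and Sox5 fell in wild type, at -0.88 (adjusted p = 3.83e-05) and -0.64 (adjusted p = 0.000151), and Comp, which binds type II and IX collagens, rose by 1.59 (adjusted p = 0.00108) and 2.31 (adjusted p = 6.77e-05). Median log2 fold changes in wild type ran from -0.98 for breakdown and -0.89 for receptors to -0.12 for laminins, beside -0.01 for all genes. With spike-in scaling 5 of the genes on the 8 lists rose in wild type and 2 in heterozygous cultures, in place of 9 and 9.

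On these 8 lists, 2 genes were called by genotype. Itga10, the integrin subunit that binds type II collagen on chondrocytes, averaged 3.71 ± 0.0549 CPM in wild-type solvent cultures, against 1.73 ± 0.444 CPM in heterozygous ones (SD, n = 4). It was lower in heterozygous cultures in solvent, at -1.09 (SE 0.25, adjusted p = 0.0277), and with FK228, at -1.64 (SE 0.32, adjusted p = 0.00869). Epyc, a small proteoglycan of cartilage and of the cochlear supporting cells, averaged 1476 ± 213 CPM in wild-type solvent cultures, against 2084 ± 315 CPM in heterozygous ones. It was higher in heterozygous solvent cultures, by 0.50 (SE 0.12, adjusted p = 0.0277).

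Marker genes of other cell types were counted in the same FK228 comparisons, in which 25.3% of all tested genes were lower and 23.7% higher in wild type and 24.7% and 23.8% in heterozygous cultures. Of 11 tested mesenchyme markers that are not collagen chains, 10 fell and 1 was not called in each genotype, and the 12 listed genes summed to 1356 to 1827 CPM in wild-type solvent libraries, 981 to 1279 with FK228, 1749.7 to 2110.0 in heterozygous solvent libraries and 1267 to 1316 with FK228. The 13 tested endothelial and pericyte markers had 7 lower and 1 higher in each genotype, and summed to 398 to 586, 309.7 to 409.8, 459 to 928 and 362 to 587 CPM in the same order of groups. The 13 tested Schwann cell markers had 7 lower and 2 higher, with sums of 409 to 488, 238 to 277, 421 to 466 and 217 to 278 CPM. All 14 macrophage markers fell in both genotypes, from 516 to 613 to 65.8 to 85.1 CPM in wild type and from 346 to 522 to 44.5 to 65.8 CPM in heterozygous cultures. The sums of supporting cell markers overlapped between treatments, at 2642 to 3578 and 3047 to 3445 CPM in wild type and 2819.8 to 4154 and 2801 to 3210.4 CPM in heterozygous cultures. Of these 13 markers, 5 fell and 1 rose in wild type, and 6 fell and 0 rose in heterozygous cultures. Of 13 hair cell markers, 7 fell and 1 rose in wild type, and 5 fell and 1 rose in heterozygous cultures. The hair cell sums had higher means with FK228 (500 and 547 CPM in wild type, 381 and 440 in heterozygous cultures). Their ranges overlapped, at 437 to 577 and 519 to 566 CPM in wild type and 328 to 471 and 401 to 484 CPM in heterozygous cultures. Of 13 spiral ganglion neuron markers, 4 fell and 5 rose in wild type, and 2 fell and 7 rose in heterozygous cultures. The neuron sums overlapped too, at 1235 to 1529 and 1108 to 1503 CPM in wild type and 1069 to 1397 and 972 to 1108 CPM in heterozygous cultures. No marker on these lists was at 0 in all libraries. Their part in the collagen results was not tested.

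Without heterozygous solvent replicate 4 and wild-type solvent replicate 1, whose reads outside genes were fewest, 5 chains rose and 24 fell in wild type (23.4% and 23.8% of all genes). In heterozygous cultures 3 rose and 23 fell (23.1% and 23.6%). In that analysis the Col1a1 rise in heterozygous cultures was 0.55 (adjusted p = 0.0982), and the Col4a4 fall in wild type was -0.76 and called (adjusted p = 0.0389).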

How the data were processed

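Paired-end reads came from oligo dT primed, template-switched and tagmented cDNA of 16 pools of cultured organ of Corti, per the labels' protocols. The authors' deposited files give whole read counts for every gene. The submitters' processing notes name STAR 2.5.2a and GRCm38.p4, and the column without strand was used. They also deposited a normalized signal table, for which those notes name DESeq2, and in it 100.0% of 339520 values were whole counts (within 0.001) divided by 1 factor per library. Those recovered counts equal the deposited ones. Tests on them called 8394 genes for FK228 in wild type, as many as the main test, which is a repeat and not an independent check. Summary rows of reads in no gene and spike-ins stayed out of library sizes.

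The filter filterByExpr of edgeR 4.0.16 (R 4.3.3), at a minimum count of 10 and a total of 15, kept 17125 genes. With TMM factors, edgeR's quasi-likelihood test was run on all 16 libraries with 4 group means, and Benjamini-Hochberg adjustment covered every gene tested. Exon lengths and positions came from GENCODE M21, and promoter windows from RefSeq. Counts were simulated for the genes kept by the filter, and 200 of these were changed 2-fold, up or down, in the wild-type FK228 libraries only. The simulated counts were filtered again, which left 16816 genes to test. The test recovered 70.5% of the changed genes, and 2.08% of the calls were false. The real comparison called 8394 genes, so the simulation does not check the false calls or the TMM assumption at that extent of change. Replicates differed beyond sampling noise (chi-square per degree of freedom 6.46 to 27.8). Alternatives used DESeq2 1.42.0, limma 3.58.1, other scalings and filters, covariates and single libraries left out.

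The collagen chains, gene lists and alternatives were chosen with earlier results of these data known. Genes were named by rule. The rule took Col3a1, the most abundant chain per length of each class, the 2 chains of each class with the smallest adjusted p per direction and FK228 comparison, chains with opposite signs in the genotypes and collagen genes within 100 kb of each other. It also took the 2 pathway genes per direction with the smallest adjusted p in wild type and pathway genes called by genotype. The other chains were named after their values were seen.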

Additional observations from a re-analysis of the deposited data

Results flagged for a closer look

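The levels of the 41 chains and 8 collagen shares gave 196 sets of 4 libraries, and in each the highest and lowest library was compared with the others by Dixon's criterion. It set 6 apart, where chance gives about 9.8 (about 1 in 20). Col3a1 in wild-type solvent replicate 2 was at 1846 CPM, below the other libraries of that group at 2355 to 2428 CPM, and above every FK228 library. Col5a1 in wild-type FK228 replicate 2 was at 15.5 CPM, above the others at 11.7 to 12.2 CPM. Col22a1 in heterozygous FK228 replicate 4 was at 1.15 CPM, above the others at 0.620 to 0.708 CPM.

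The type VI chain Col6a5 was at 0 in the other libraries of 3 groups and was found in 1 library of each. Heterozygous solvent replicate 1 had 1.19 CPM, wild-type FK228 replicate 7 had 0.0566 CPM and heterozygous FK228 replicate 4 had 0.0676 CPM. The first of these rests on 17 counts. With the other 3 libraries of a group at 0, any value above 0 is set apart, however small. The number that chance gives does not apply to such sets.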

How the results depend on the processing

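In the alternatives other than leaving out single libraries, 811 values kept their direction and call. A call was gained by 16 and lost by 21, and 12 turned sign. With single libraries left out these numbers were 1025, 12, 28 and 7. Of the 811, 67 came from the recovered counts, which equal the main counts and had to give the same result. Without 1 library, the counts ranged over 4 to 6 higher and 21 to 24 lower chains for FK228 in wild type. Spike-in scaling gave 0 higher chains for FK228 in heterozygous cultures, and fitting the groups compared alone gave 2; the latter could not be run for the interaction. Spike-in scaling gave 5 higher pathway genes in wild type and 2 in heterozygous cultures, 35 lower chains for genotype with FK228 and 12 for the interaction. Genotype in solvent gave 1 lower chain, Col28a1, with spike-in scaling, no filter, the share of reads outside genes as a covariate and DESeq2 (without single libraries, 0 to 1). With spike-in counts as the denominator the log2 ratio of collagen share was -1.65 for FK228 in heterozygous cultures and -1.001 for genotype with FK228, in place of -0.85 and -0.22.

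Signs that turned belonged to values that were not called with TMM scaling on all libraries; the cause was not tested. For FK228 in wild type these were Col18a1 (-0.080) and Col4a5 (-0.019) with spike-in scaling, and Col4a3 with the replicate block (0.041) and without wild-type solvent replicate 2 (0.034; range without single libraries -0.78 to 0.034). In heterozygous cultures Col4a5 was at -0.54 and Col4a6 at -0.22 with spike-in scaling. Col18a1 was at 0.0032 with the stricter filter, 0.22 with the covariate, 0.0097 with limma and 0.079 without the 2 libraries of lowest outside share. Without single libraries it ran from -0.18 to 0.15. For genotype in solvent Col3a1 was at -0.16 with spike-in scaling, -0.054 with sex mix as a covariate and -0.080 to 0.12 without single libraries. Col9a2 was at -0.19 in the interaction with spike-in scaling.

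Replicate numbers did not pair the libraries (11 same-numbered pairs, correlations -0.23 to 0.17). The replicate block removed 6 calls of named chains; Col9a1 was at -0.48 (edgeR adjusted p = 0.204) and Col6a1 at -0.65 (0.0702) in wild type, and Col1a1 at 0.69 (0.0645) in heterozygous cultures. The depth limits Col6a5, Col13a1, Col19a1, Col20a1 and Col22a1, which had few counts.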

Other observations

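Some collagen genes with shared neighbourhoods had unlike levels. Col9a1 and Col19a1, 9205 bases apart on chromosome 1, averaged 469 and 0.0492 CPM per kilobase in wild-type solvent cultures. Col6a6 and Col6a5, 27917 bases apart on chromosome 9, averaged 0.251 CPM per kilobase and 0. Col4a3 exceeded Col4a4, which starts 71 bases away on the other strand, 29.7 ± 10.4-fold per kilobase (SD, n = 4). These are values of mRNA and say nothing of the protein chains, which assemble in fixed proportions.

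Across the 39 tested chains, the GC content of the longest coding transcript and the log2 fold change with FK228 had a Pearson r of 0.34 (Spearman rho 0.30) in wild type and 0.42 (0.43) in heterozygous cultures. The chains share the same libraries and are not independent replicates. The part of GC content in the results was not tested.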
